A study of Homo sapiens with 16 samples.

Results

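YAP1, its relative WWTR1 (the gene for the protein TAZ), the DNA-binding partners TEAD1 and TEAD4, the kinase gene LATS2 and 5 genes tied to them as targets or regulators (CCN1, CCN2, ANKRD1, AMOTL2 and AJUBA) were followed in RNA of quiescent U2OS cells, a human osteosarcoma line. The 10 genes were chosen by name, and all 10 were found among the 59081 rows of the count table and among the 20446 genes that passed the filter on low counts. RNA was sequenced (polyA-selected, paired-end) from cells kept without serum for 48 h, to which harmine (10 µM, as the hydrochloride in water), INDY (25 µM, in DMSO) or the matching vehicle was added for 24 h. The 4 groups, water, harmine, DMSO and INDY, had 4 libraries each. All groups shared the cell line and the serum withdrawal, which the paper reports for confluent cells. The 2 compounds differed in dose and in vehicle.

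In the Hippo pathway, the kinases encoded by STK3 and STK4 activate LATS1 and LATS2, which phosphorylate YAP and TAZ and keep them out of the nucleus. Unphosphorylated YAP and TAZ enter the nucleus, bind TEAD proteins on DNA and raise the transcription of genes such as CCN1 and CCN2, and serum is one of the signals that activates them. Harmine and INDY are used as inhibitors of the kinase DYRK1A, which can phosphorylate LATS2. The comparison of each compound with its own vehicle therefore asked how these genes were expressed when DYRK1A inhibitors were present, and RNA levels do not measure the phosphorylation of YAP.

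To show where TEAD proteins could find their letters at these genes, the promoters of 4 members are given, each as the 250 bases before a transcription start (RefSeq, GRCh38.p14). CCN2 and ANKRD1 are shown because they held the most matches, AMOTL2 because it fell with harmine, and YAP1 as the coactivator gene itself. Each is written 5′ to 3′ on the strand of its gene, and capitals mark the TEAD core GGAATG, or CATTCC where the core lies on the other strand.
CCN2 (chr6:131951373-131951622, minus strand): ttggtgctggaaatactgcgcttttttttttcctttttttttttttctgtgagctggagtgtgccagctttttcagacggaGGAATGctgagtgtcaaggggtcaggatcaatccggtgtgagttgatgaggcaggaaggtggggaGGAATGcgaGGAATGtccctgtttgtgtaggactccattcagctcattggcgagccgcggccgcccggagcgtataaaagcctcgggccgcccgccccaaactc
ANKRD1 (chr10:90921088-90921337, minus strand): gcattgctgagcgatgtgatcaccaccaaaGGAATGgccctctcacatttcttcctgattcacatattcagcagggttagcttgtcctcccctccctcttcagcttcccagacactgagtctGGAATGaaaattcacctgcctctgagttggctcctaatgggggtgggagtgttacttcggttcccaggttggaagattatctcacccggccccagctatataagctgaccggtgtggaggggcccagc
AMOTL2, start 2 (chr3:134374448-134374697, minus strand): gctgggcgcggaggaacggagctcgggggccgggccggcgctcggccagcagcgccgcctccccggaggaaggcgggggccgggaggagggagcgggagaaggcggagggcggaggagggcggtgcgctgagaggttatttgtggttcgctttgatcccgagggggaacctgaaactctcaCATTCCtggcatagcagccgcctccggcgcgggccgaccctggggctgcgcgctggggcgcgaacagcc
YAP1 (chr11:102110197-102110446, plus strand): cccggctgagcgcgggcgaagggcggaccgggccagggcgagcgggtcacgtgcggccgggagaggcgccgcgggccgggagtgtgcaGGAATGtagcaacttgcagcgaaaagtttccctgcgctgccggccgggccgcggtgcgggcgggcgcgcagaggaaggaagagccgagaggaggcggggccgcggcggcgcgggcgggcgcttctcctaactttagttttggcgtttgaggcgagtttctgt

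The TEAD core was searched on both strands from 250 bases before to 50 after each start. RefSeq promoters matched 7 of the 10 members, with 10 promoters in all, and CCN1, TEAD1 and TEAD4 had no entry. The core was present in 6 of the 10 promoters, 1 for each of 6 genes, against 14.0% of all 35116 promoters given. In the CCN2 promoter, the core began 169, 104 and 95 bases before the start, and 3 or more matches were found in 0.128% of all promoters. ANKRD1 held it at 220 and 128 bases before the start, and 2 or more matches were found in 1.37% of all promoters. The core lay 162 bases before the start of YAP1, 69 bases before start 2 of AMOTL2 on the opposite strand, 59 bases before start 2 of AJUBA, and 9 bases after the start of LATS2. WWTR1 had no match, nor had start 1 of AMOTL2. Start 1 of AJUBA, the start of the annotated AJUBA transcript used here for lengths, had none either. The longer form TGGAATGT, which contains the core, the AP-1 site TGACTCA and the CArG box (the serum response factor motif) were found in none of the 10 promoters, against 1.17%, 4.95% and 1.29% of all promoters. A match is a description of letters and not a bound site, and a missing match says only that these letters are not in the window.

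**Figure D1:**
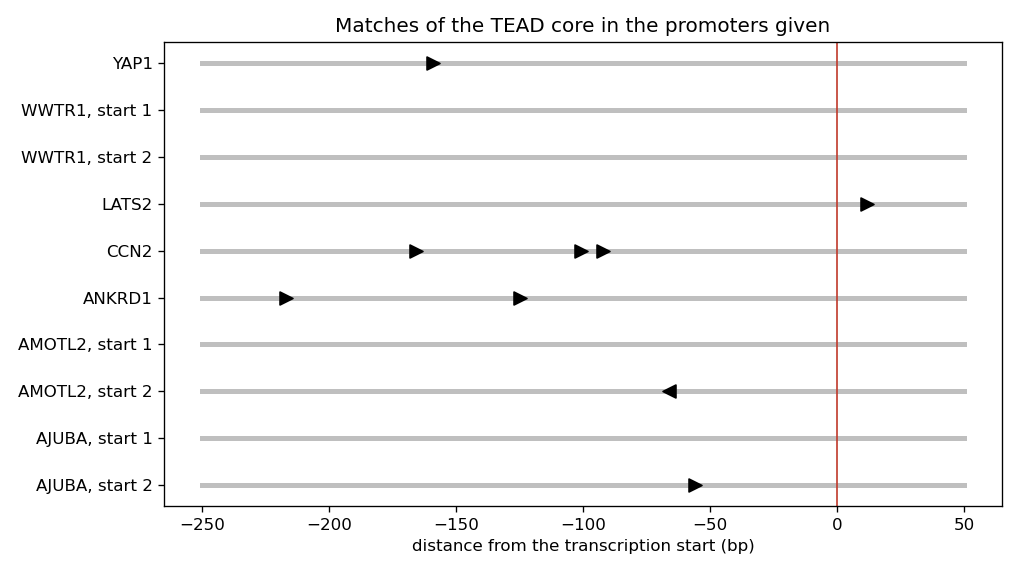
Position of TEAD core matches in the promoters of the 7 members with an entry, drawn as distance in bases from the transcription start. Each line is 1 promoter from 250 bases before to 50 bases after its start, and CCN2 carries 3 matches, the most of any member.

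Estimated counts per library summed to 44301910 to 65889667, and the lowest count of any member in any library was 1945. In a principal component analysis of all tested genes, some libraries stood apart from others of their group. INDY replicates 1 and 3 stood apart from INDY replicates 2 and 4 on component 1 (96.0 and 105 against 80.1 and 85.1), and water replicates 1 and 4 stood apart from water replicates 2 and 3 on component 3 (26.6 and 34.6 against 4.35 and 3.94). DMSO replicate 1 was at -6.51 on component 3 and the other DMSO libraries at -25.4 to -20.5. Calls that changed without any of these libraries are given with both values. Of the markers of bone and connective tissue cells, VIM, COL1A1, SPARC and RUNX2 were present, but COL1A2 had at most 10 counts in a library. The summed level of the 7 markers was 2954 to 3193 CPM (counts scaled to a common library size) with water, 3621 to 3716 with harmine, 3217 to 3451 with DMSO and 3275 to 3681 with INDY, most of it from VIM. Of the 6 that were tested, 4 rose and 2 fell with harmine. With INDY, VIM rose (log2 fold change 0.28) and 5 fell, namely ALPL (-2.29), COL5A1 (-1.16), RUNX2 (-0.53), SPARC (-0.44) and COL1A1 (-0.36). The summed level of 6 epithelial markers was 612 to 645, 595 to 607, 568 to 589 and 629 to 672 CPM in the same order, nearly all from KRT8 and KRT18. That of 5 endothelial markers was 8.31 to 9.68, 6.17 to 7.10, 6.78 to 7.21 and 3.20 to 4.30 CPM. Of the blood markers, 3 were tested. ITGAM was at 35.5 ± 1.38, 11.3 ± 0.83, 33.0 ± 1.31 and 6.33 ± 1.28 CPM (SD, n = 4 each) and fell with both compounds. CD14 was at 0.095, 0.10, 0.066 and 1.5 CPM and rose with INDY, and PTPRC was at 0.28, 0.39, 0.16 and 0.020 CPM and fell with INDY. CD3E and HBB had at most 3 counts in a library. Between the vehicles, VIM was higher with DMSO than with water (0.21, adjusted p = 0.00157 in edgeR). KRT8 was lower with DMSO (-0.16, adjusted p = 0.000966 in edgeR), and the other tested markers did not pass. No marker of the connective tissue, epithelial and endothelial lists was at 0 in all libraries, and the part of these shifts in the results below was not tested.

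DYRK1A itself is not a member. Its level was 19.2 ± 0.75 CPM with water and 18 ± 0.87 with harmine (SD, n = 4 each), which did not pass the threshold (log2 fold change -0.09, adjusted p = 0.153 in edgeR). With INDY it rose from 17.7 ± 0.50 with DMSO to 20.9 ± 1.64 CPM (log2 fold change 0.25, adjusted p = 0.000372 in edgeR), a call that was lost without INDY replicates 1 and 3 (0.15, adjusted p = 0.0167).

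Harmine raised 3 of the 10 members and lowered 4. TEAD1, CCN1 and ANKRD1 rose, whereas YAP1, WWTR1, CCN2 and AMOTL2 fell. INDY raised CCN1 and ANKRD1 and lowered WWTR1, TEAD1 and AJUBA. A gene was called at an adjusted p under 0.01 in edgeR's quasi-likelihood test, with Benjamini-Hochberg adjustment over all 20446 genes. Of all tested genes, 24.9% rose and 22.8% fell with harmine, and 33.2% rose and 33.4% fell with INDY, so these counts of 10 members lay near the share over all genes. The members' median log2 fold change was -0.04 with harmine and 0.02 with INDY, beside 0.02 and -0.01 over all genes. The libraries of harmine and water did not overlap for 8 members (55.1% of all genes), and those of INDY and DMSO for 5 (67.5% of all genes). The labels do not tell whether the libraries of a group were separate cultures. The p-values therefore measure the spread between libraries, and part of it may be technical. This spread was estimated for each gene over the 16 libraries of the 4 groups together. Leaving out a library of another group can therefore change a call. In bulk RNA, fewer cells that express a gene and less of its RNA per cell cannot be told apart.

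**Figure D2:**
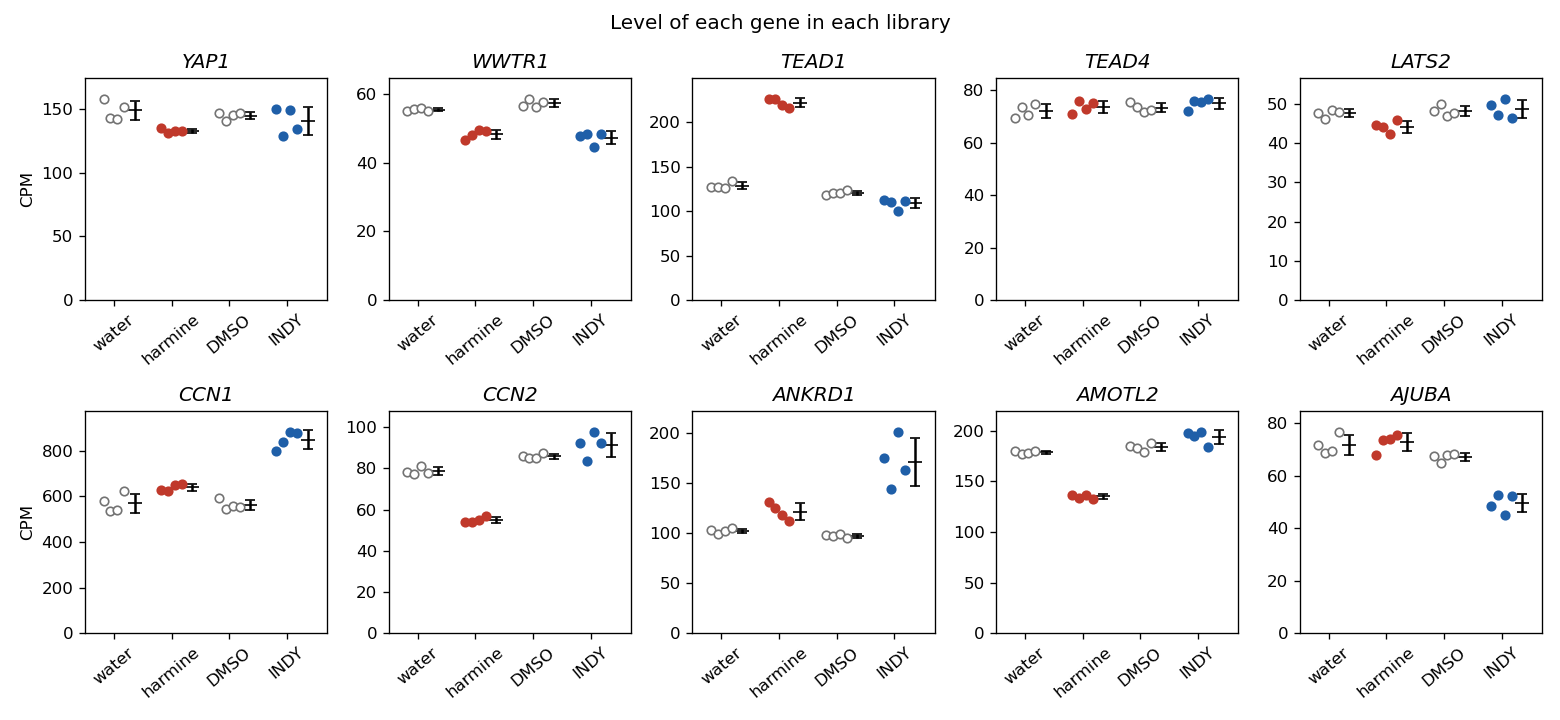
Level of each member in each library, in CPM on a linear axis, with 1 panel per gene, points for libraries and a dash with bars for the mean and SD of each group of 4. TEAD1 stands at 215 to 226 CPM with harmine and at 100 to 134 CPM in all other groups, while CCN1 and ANKRD1 are highest with INDY.

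Among the DNA-binding partners, TEAD1 showed the widest change with harmine. TEAD1 (chromosome 11, 12674421 to 12944737, plus strand, GRCh38) encodes a transcription factor that recruits YAP or TAZ to DNA. Its level was 127, 127, 126 and 134 CPM with water and 226, 226, 219 and 215 CPM with harmine (replicates 1 to 4). All harmine libraries lay above all water libraries, a 1.73-fold rise (log2 fold change 0.79, SE 0.03, 95% interval 0.72 to 0.86, adjusted p = 1.99e-12 in edgeR). It was the only member that rose at least 1.5-fold with harmine, against 8.41% of all genes, and no member fell that far, against 7.90%.

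With INDY, TEAD1 moved the other way. DMSO libraries had 118, 120, 120 and 124 CPM of TEAD1 and INDY libraries 113, 110, 100 and 111 CPM. The groups did not overlap, and TEAD1 was lower with INDY (log2 fold change -0.15, 95% interval -0.22 to -0.08, adjusted p = 0.000803 in edgeR). The harmine effect exceeded the INDY effect by 0.94 on the log2 scale (95% interval 0.83 to 1.04, adjusted p = 1.58e-11 in edgeR). TEAD1 was the only member called in opposite directions. Of all genes, 6.26% rose with harmine and fell with INDY, and 4.55% fell with harmine and rose with INDY, a pattern that no member showed.

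TEAD4 (chromosome 12, 2959330 to 3040676, plus strand) encodes a second factor of the same family and passed in neither comparison. It stood at 69.3, 73.6, 70.8 and 74.9 CPM with water and at 70.9, 76.0, 73.0 and 75.1 CPM with harmine. Its DMSO values were 75.5, 73.7, 71.8 and 72.6 CPM and its INDY values 72.0, 75.9, 75.6 and 76.9 CPM. The groups overlapped in both comparisons, and the 95% intervals of the log2 fold change were -0.04 to 0.10 with harmine (adjusted p = 0.424 in edgeR) and -0.04 to 0.10 with INDY (adjusted p = 0.372 in edgeR). The difference between the effects had an interval of -0.10 to 0.10 (adjusted p = 0.984 in edgeR).

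Divided by transcript length, the TEAD genes can be set side by side. The length was that of 1 annotated transcript per gene, 9417 bases for TEAD1 and 1710 for TEAD4. In CPM without this division, TEAD1 was above TEAD4 in each group. TEAD1 was at 128, 222, 121 and 109 CPM for water, harmine, DMSO and INDY, and TEAD4 at 72.2, 73.8, 73.4 and 75.1. The order of these genes per kb therefore rests on the lengths. In CPM per kb, TEAD4 was the highest of the 4 in every group (42.2 and 43.1 for water and harmine, 42.9 and 43.9 for DMSO and INDY). TEAD1 stood at 13.6, 23.5, 12.8 and 11.5 CPM per kb in the same order. TEAD3, which was not among the members, stood at 14.4, 13.8, 13.9 and 14.6. TEAD1 made up 16.7% of the summed TEAD1 to TEAD4 level with water and 27.0% with harmine, and 16% with DMSO and 15.4% with INDY. TEAD4 held the largest share in each group, 51.7%, 49.5%, 53.8% and 58.5%. TEAD2, which belongs to the other pathway genes below, had 13.9% with water and 7.58% with harmine, and 12.8% with DMSO and 6.78% with INDY.

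**Figure D3:**
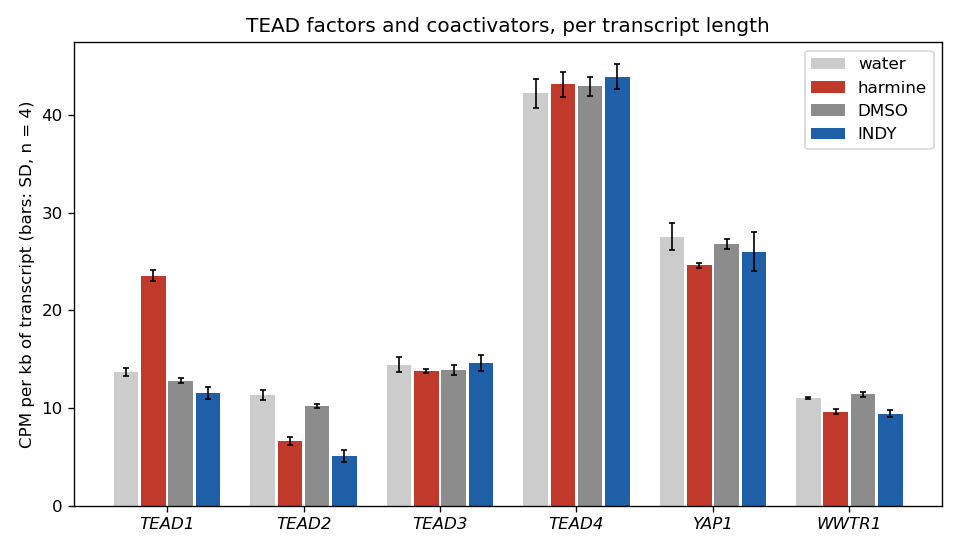
Mean level of the 4 TEAD genes, YAP1 and WWTR1 per transcript length, in CPM per kb on a linear axis, in the 4 groups, with error bars for the SD over 4 libraries. TEAD4 is the highest TEAD gene in each group, and TEAD1 rises from 13.6 with water to 23.5 with harmine.

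The coactivator YAP1 (chromosome 11, 102110447 to 102233424, plus strand) changed little. YAP1 stood at 158, 143, 142 and 152 CPM with water and at 135, 131, 133 and 132 CPM with harmine. All harmine libraries were below all water libraries (log2 fold change -0.16, SE 0.04, 95% interval -0.26 to -0.07, adjusted p = 0.00385 in edgeR). The call was lost without water replicate 1 (-0.13, adjusted p = 0.0194), without water replicate 4 (-0.15, adjusted p = 0.0115) and without both (-0.10, adjusted p = 0.0959).

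With DMSO, YAP1 was at 147, 141, 145 and 146 CPM, and with INDY at 150, 128, 149 and 134 CPM. These groups overlapped, and the difference did not pass (log2 fold change -0.04, 95% interval -0.13 to 0.05, adjusted p = 0.4 in edgeR). INDY replicates 1 and 3 lay above replicates 2 and 4. Without replicates 1 and 3, YAP1 was lower with INDY and passed (-0.13, adjusted p = 0.00564), and without replicate 2 it was at 0.01 (adjusted p = 0.908). The harmine effect minus the INDY effect on YAP1 was -0.12 (95% interval -0.25 to 0.010, adjusted p = 0.0964 in edgeR), and it passed without INDY replicate 2 (-0.18, adjusted p = 0.00819).

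WWTR1 (chromosome 3, 149517235 to 149736714, minus strand) was the only member lowered by both compounds, against 12.0% of all genes. Water libraries had 55.1, 55.6, 55.9 and 55.1 CPM of WWTR1 and harmine libraries 46.5, 48.2, 49.4 and 49.1 CPM. It was at 56.5, 58.7, 56.3 and 57.8 CPM with DMSO and at 47.8, 48.4, 44.5 and 48.4 CPM with INDY. Neither treated group overlapped its vehicle group. The log2 fold change was -0.20 with harmine (95% interval -0.27 to -0.13, adjusted p = 3.14e-05 in edgeR) and -0.28 with INDY (95% interval -0.34 to -0.21, adjusted p = 2.44e-07 in edgeR). The effects differed by 0.08 (95% interval -0.02 to 0.17, adjusted p = 0.13 in edgeR), which did not pass. Per kb of transcript, the ratio of YAP1 to WWTR1 was 2.50 for water and 2.56 for harmine, and 2.35 for DMSO and 2.77 for INDY.

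LATS2 (chromosome 13, 20973036 to 21061586, minus strand) encodes the kinase that phosphorylates YAP and TAZ, and it passed in neither comparison. Its values were 47.7, 46.1, 48.4 and 47.9 CPM with water and 44.5, 43.9, 42.2 and 45.9 CPM with harmine. The groups did not overlap, and the log2 fold change was -0.11 (95% interval -0.18 to -0.03, adjusted p = 0.019 in edgeR). It passed under other settings, such as DESeq2 (-0.12, adjusted p = 0.00725), upper-quartile factors (-0.12, adjusted p = 0.00762) and a fit to the 8 libraries compared (adjusted p = 0.00613). Without 1 library it also passed, in the case of water replicate 2, harmine replicate 4 or INDY replicates 2, 3 or 4 (log2 fold changes -0.14 to -0.12, adjusted p 0.00401 to 0.00896), and likewise without INDY replicates 1 and 3 (-0.12, adjusted p = 0.0023).

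With INDY, the LATS2 libraries spread over those with DMSO. LATS2 was at 48.2, 49.9, 47.0 and 47.6 CPM with DMSO and at 49.7, 47.2, 51.3 and 46.3 CPM with INDY (log2 fold change 0.01, 95% interval -0.06 to 0.09, adjusted p = 0.741 in edgeR). The difference between the compounds' effects on LATS2 did not pass (-0.12, 95% interval -0.23 to -0.01, adjusted p = 0.0504 in edgeR).

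CCN1 and CCN2 are secreted matrix proteins, often used as readouts of YAP and TEAD, and they did not move alike. CCN1 (chromosome 1, 85580761 to 85584589, plus strand) was at 579, 535, 538 and 621 CPM with water and at 629, 623, 651 and 653 CPM with harmine. The harmine libraries all lay above the water libraries, the lowest at 623 CPM against the highest at 621 CPM. CCN1 was called higher with harmine (log2 fold change 0.17, SE 0.04, 95% interval 0.08 to 0.26, adjusted p = 0.00294 in edgeR). The call was lost without water replicate 2 (0.13, adjusted p = 0.0263), without water replicate 3 (0.13, adjusted p = 0.0254), without harmine replicate 3 (0.15, adjusted p = 0.018) and without harmine replicate 4 (0.14, adjusted p = 0.0186).

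With INDY the rise in CCN1 was larger. DMSO libraries had 593, 544, 559 and 552 CPM and INDY libraries 797, 838, 884 and 877 CPM of CCN1. CCN1 was 1.51-fold higher with INDY, with no overlap (log2 fold change 0.59, 95% interval 0.50 to 0.69, adjusted p = 5.83e-10 in edgeR). The harmine effect was smaller than the INDY effect by a log2 difference of -0.43 (95% interval -0.56 to -0.29, adjusted p = 9.06e-06 in edgeR).

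CCN2 (chromosome 6, 131948176 to 131951372, minus strand) fell with harmine. Its values were 78.2, 77.4, 81.4 and 77.8 CPM with water and 53.9, 54.2, 54.9 and 56.8 CPM with harmine. CCN2 was 1.43-fold lower with harmine, and the groups were well apart (log2 fold change -0.52, SE 0.04, 95% interval -0.60 to -0.44, adjusted p = 1.66e-09 in edgeR).

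With INDY, CCN2 did not pass. DMSO libraries had 86.1, 85.1, 84.9 and 87.5 CPM and INDY libraries 92.3, 83.7, 97.9 and 92.4 CPM of CCN2, and INDY replicate 2 lay below the DMSO libraries. The log2 fold change was 0.09 (95% interval 0.01 to 0.17, adjusted p = 0.032 in edgeR). Without INDY replicate 2 it passed (0.14, adjusted p = 0.000624). The harmine effect on CCN2 was lower than the INDY effect by a log2 difference of -0.61 (95% interval -0.72 to -0.50, adjusted p = 1.42e-08 in edgeR).

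ANKRD1 (chromosome 10, 90912096 to 90921087, minus strand) encodes an ankyrin-repeat protein of muscle and stressed cells and is a common YAP and TEAD target. It was at 103, 98.7, 102 and 104 CPM with water and at 131, 125, 118 and 112 CPM with harmine. The groups did not overlap, and ANKRD1 was called higher with harmine (log2 fold change 0.25, SE 0.07, 95% interval 0.10 to 0.40, adjusted p = 0.00464 in edgeR). Its call was lost when any 1 of 7 libraries was left out, namely water replicates 1, 2 or 3, harmine replicates 1, 2 or 3 or DMSO replicate 3, with log2 fold changes of 0.20 to 0.25 and adjusted p of 0.01 to 0.031. It was also lost without water replicates 1 and 4 (0.27, adjusted p = 0.0182).

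With INDY, ANKRD1 rose more. DMSO libraries had 97.9, 96.5, 99.0 and 94.9 CPM and INDY libraries 175, 144, 201 and 162 CPM of ANKRD1. All INDY libraries lay above all DMSO libraries, with replicates 1 and 3 the highest. ANKRD1 was 1.76-fold higher (log2 fold change 0.81, 95% interval 0.67 to 0.96, adjusted p = 4.17e-09 in edgeR). The harmine effect was lower than the INDY effect by a log2 difference of -0.56 (95% interval -0.77 to -0.36, adjusted p = 6.24e-05 in edgeR). CCN1 and ANKRD1 were the members raised by both compounds, and 12.1% of all genes were. They were also the 2 members raised at least 1.5-fold by INDY, against 14.3% of all genes, while no member fell that far, against 19.4%.

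AMOTL2 (chromosome 3, 134355347 to 134375479, minus strand) encodes an angiomotin, which holds YAP outside the nucleus and is itself a YAP target. Its values were 180, 177, 178 and 180 CPM with water and 137, 134, 137 and 133 CPM with harmine. AMOTL2 was 1.33-fold lower with harmine, with no overlap (log2 fold change -0.41, SE 0.03, 95% interval -0.46 to -0.35, adjusted p = 5.23e-10 in edgeR).

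With INDY, AMOTL2 stood at 198, 195, 199 and 184 CPM against 185, 183, 179 and 188 CPM with DMSO. INDY replicate 4 lay within the DMSO libraries and the other INDY libraries above them. The log2 fold change was 0.08 (95% interval 0.02 to 0.13, adjusted p = 0.0158 in edgeR), which did not pass, but it did in DESeq2 (0.08, adjusted p = 0.00496) and without INDY replicate 4 (0.11, adjusted p = 0.001). The difference between the effects on AMOTL2 was -0.48 (95% interval -0.56 to -0.40, adjusted p = 4.47e-09 in edgeR).

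AJUBA (chromosome 14, 22971177 to 22982551, minus strand) encodes a LIM-domain adaptor that binds LATS kinases and restrains them. It stood at 71.8, 68.7, 69.6 and 76.9 CPM with water and at 67.9, 73.6, 74.1 and 75.6 CPM with harmine, and these groups overlapped (log2 fold change 0.02, 95% interval -0.08 to 0.12, adjusted p = 0.701 in edgeR). With INDY the libraries had 48.5, 52.6, 45.2 and 52.3 CPM, against 67.7, 64.9, 67.8 and 68.2 CPM with DMSO. AJUBA fell 1.35-fold with INDY, with no overlap (log2 fold change -0.44, 95% interval -0.54 to -0.34, adjusted p = 1.3e-07 in edgeR). The harmine effect exceeded the INDY effect by 0.46 (95% interval 0.32 to 0.60, adjusted p = 8.61e-06 in edgeR).

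The compounds' effects differed for 6 of the 10 members. The difference was positive for TEAD1 and AJUBA and negative for CCN1, CCN2, ANKRD1 and AMOTL2. Of all tested genes, 28.1% had a positive and 26.4% a negative difference that passed. Because dose and vehicle also differed, these are differences between the 2 treatments as given. For YAP1, WWTR1, TEAD4 and LATS2 the difference did not pass, which does not show that the compounds act alike on them, and the intervals of the differences given above show the sizes that the data allow. Log2 fold changes of the members between DMSO and water ran from -0.09 to 0.13. None of the 10 passed between DMSO and water in edgeR, against 4.29% of all genes, and DESeq2 and limma voom also called none. At an unadjusted p under 0.05 there were 2. CCN2 was closest, at 0.13 (adjusted p = 0.0356 in edgeR), and TEAD1 was the other, at -0.09 (adjusted p = 0.0961 in edgeR). The vehicle libraries did not overlap for CCN2 and WWTR1, which were higher with DMSO, nor for TEAD1 and AJUBA, which were lower. The shares of all genes at this unadjusted p and without overlap between the vehicles were not counted. Neither list therefore sets the members apart from other genes. CCN2 passed without INDY replicate 2 (adjusted p = 0.00889) and without INDY replicates 1 and 3 (adjusted p = 0.00804).

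**Figure D4:**
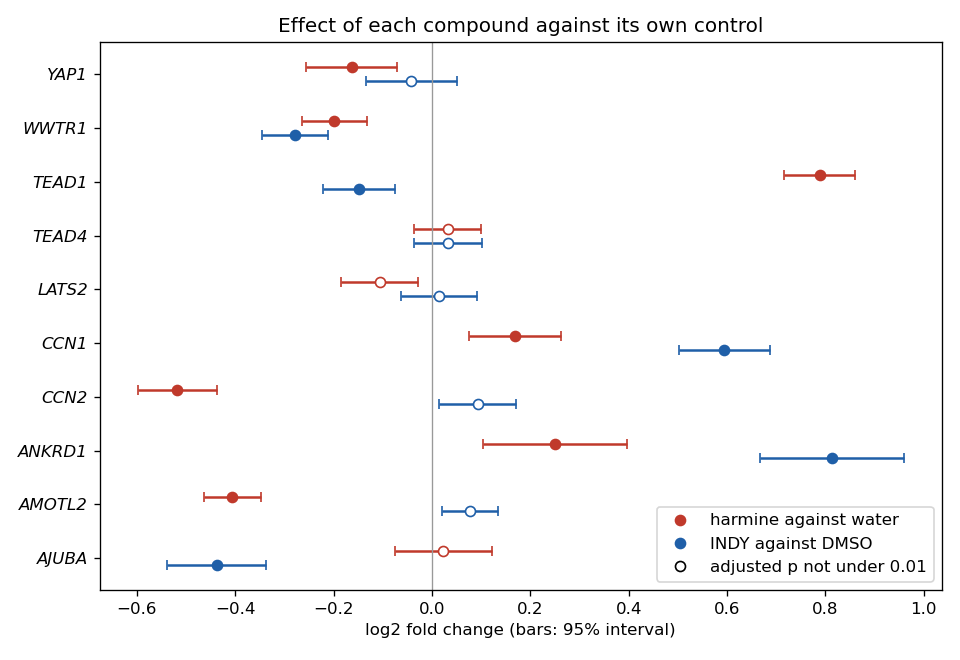
Log2 fold change of each member for harmine against water and for INDY against DMSO, with points for the estimate and bars for its 95% interval. TEAD1 lies at 0.79 with harmine and -0.15 with INDY, and CCN2 and AMOTL2 lie at -0.52 and -0.41 with harmine and at 0.09 and 0.08 with INDY.

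Set in order of level per kb of transcript, the members kept much the same rank in all groups. With water the order was CCN1 (250 CPM per kb), ANKRD1 (57.0), TEAD4 (42.2), AMOTL2 (36.8), CCN2 (33.6), YAP1 (27.5), AJUBA (17.2), TEAD1 (13.6), WWTR1 (11) and LATS2 (8.57), and no 2 neighbours had overlapping libraries. With harmine, TEAD1 (23.5) stood beside CCN2 (23.5), and the libraries of CCN2 overlapped those of both TEAD1 and YAP1 (24.6). With DMSO, AMOTL2 (37.7) and CCN2 (36.7) overlapped. With INDY, AMOTL2 (39.8) overlapped CCN2 (39.2), AJUBA (11.9) overlapped TEAD1 (11.5), and WWTR1 (9.39) overlapped LATS2 (8.77). The lengths are those of 1 annotated transcript per gene, and the levels carry the uncertainty of which transcript was expressed.

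The other genes of the Hippo pathway were a list of 34, of which 33 were tested and VGLL1 had 0 counts in all libraries. Harmine raised 10 and lowered 9 (24.9% and 22.8% of all genes), and 14 did not pass, with a median log2 fold change of -0.06. INDY raised 15 and lowered 11 (33.2% and 33.4% of all genes), and 7 did not pass, with a median of 0.07. The genes with the widest changes came from several steps of the pathway.

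With harmine, TEAD2, which encodes another TEAD factor, fell from 24.6 ± 1.1 to 14.4 ± 0.81 CPM (SD, n = 4, log2 fold change -0.78, adjusted p = 4.8e-09 in edgeR). NF2, whose product merlin activates LATS kinases at the membrane, rose from 67.8 ± 4.32 to 115 ± 3.52 CPM (0.77, adjusted p = 5.02e-10). The atypical cadherin gene DCHS1 fell from 59.0 ± 2.92 to 37.4 ± 1.07 CPM (-0.66, adjusted p = 1.47e-10), and its partner FAT4 fell from 7.91 ± 0.37 to 5.05 ± 0.13 CPM (-0.65, adjusted p = 1.17e-06). NF2 with INDY was at 0.15 (adjusted p = 0.0153 in edgeR), and the effects of the compounds on it differed by 0.62 (adjusted p = 7.14e-07 in edgeR).

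With INDY, DCHS1 fell from 57.3 ± 0.77 to 20.6 ± 1.15 CPM (log2 fold change -1.47, adjusted p = 1.26e-15 in edgeR) and TEAD2 from 22.2 ± 0.45 to 11.1 ± 1.27 CPM (-1.0, adjusted p = 6.55e-11). VGLL3, a TEAD cofactor without a DNA-binding domain, rose from 28.1 ± 2.73 to 53.4 ± 11.3 CPM (0.93, adjusted p = 2.2e-06), whereas it fell with harmine from 38.3 ± 6.33 to 28.6 ± 1.42 CPM (-0.42, adjusted p = 0.00831). The fall with harmine was lost in limma voom (-0.40, adjusted p = 0.0173) and without any 1 of 7 libraries, namely water replicates 1 or 4, each harmine replicate and DMSO replicate 4 (-0.46 to -0.32, adjusted p 0.0108 to 0.0398). Without water replicates 1 and 4 it was -0.21 (adjusted p = 0.213). Between the vehicles, VGLL3 was lower with DMSO than with water but did not pass (-0.44, adjusted p = 0.0299 in edgeR). The harmine effect on VGLL3 was below the INDY effect by a log2 difference of -1.35 (adjusted p = 2.82e-06 in edgeR). WWC3, of the KIBRA family of LATS activators, fell from 16 ± 0.69 to 8.88 ± 0.95 CPM (-0.84, adjusted p = 3.55e-10).

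Counted by role, a grouping made after the values were seen, the core kinases and their partners (STK3, STK4, SAV1, LATS1, MOB1A and MOB1B) counted 2 that rose and 2 that fell with harmine. With INDY, 5 of these 6 rose and 0 fell. Over all genes, 24.9% rose and 22.8% fell with harmine, and 33.2% rose and 33.4% fell with INDY, and no test was run on these small groups. Of the core genes, SAV1, whose product joins the kinases, rose with both (log2 fold changes 0.17 and 0.32). Among the 8 membrane and junction regulators, 3 rose and 3 fell with harmine, while 0 rose and 7 fell with INDY. Of the 5 adaptors, the ligase SIAH2 included, 3 rose and 0 fell with harmine, and 4 rose and 1 fell with INDY. Of the 5 STRIPAK genes, members of a phosphatase complex that opposes the kinases, 1 rose with harmine and 3 with INDY, and none fell. Of the 4 upstream kinases, 1 rose and 2 fell with harmine, and 2 rose and 1 fell with INDY. Of the 5 TEAD and VGLL genes tested, 2 fell and 0 rose with harmine, and 2 fell and 1 rose with INDY.

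The other YAP and TEAD target genes were a list of 17, of which 16 were tested and IGFBP3 had at most 6 counts in a library. Harmine raised 6 and lowered 3 (24.9% and 22.8% of all genes), and 7 did not pass, with a median log2 fold change of 0.09. INDY raised 3 and lowered 9 (33.2% and 33.4% of all genes), and 4 did not pass, with a median of -0.41, beside -0.01 over all genes.

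TGFB2, a secreted growth factor, rose with harmine from 21.7 ± 1.03 to 45.2 ± 1.45 CPM, 2.08-fold (log2 fold change 1.06, adjusted p = 1.59e-11 in edgeR), and fell with INDY from 18.5 ± 0.82 to 8.36 ± 0.90 CPM (-1.15, adjusted p = 7.03e-12). The effects on TGFB2 differed by 2.21 (adjusted p = 1.85e-13 in edgeR). The tissue factor gene F3 (0.85, adjusted p = 4.12e-10) and the receptor kinase gene AXL, from 236 ± 8.83 to 393 ± 6.65 CPM (0.74, adjusted p = 1.06e-09), also rose with harmine. CCDC80, a secreted matrix protein, fell with harmine from 22 ± 0.57 to 8.17 ± 0.40 CPM (-1.43, adjusted p = 6.83e-14) and with INDY (-1.41, adjusted p = 1.23e-14). MYOF, a membrane-repair protein, fell with harmine (-0.44, adjusted p = 4.15e-06) and with INDY from 106 ± 2.42 to 50.5 ± 5.95 CPM (-1.07, adjusted p = 1.52e-11). ARHGEF17, a guanine nucleotide exchange factor, fell with harmine (-0.39, adjusted p = 3.14e-08).

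NT5E, which encodes the ectoenzyme CD73, was low with DMSO (0.66 ± 0.15 CPM) and fell with INDY to 0.19 ± 0.12 CPM (log2 fold change -1.80, adjusted p = 7.86e-05 in edgeR). The 3 genes that rose with INDY were GADD45A, a stress-response gene (0.67, from 63.2 ± 2.15 to 101 ± 9.97 CPM, adjusted p = 7.73e-10), DOCK5, a Rac activator (0.38, adjusted p = 5.95e-09), and ASAP1, an Arf GTPase regulator (0.23, adjusted p = 0.000507). ASAP1 did not pass without INDY replicates 1 and 3 (0.11, adjusted p = 0.0195). Between the vehicles, MYOF (-0.40, adjusted p = 0.000382), CCDC80 (-0.34, adjusted p = 0.000107) and CRIM1 (-0.23, adjusted p = 0.0091) were lower with DMSO than with water in edgeR. MYOF was not called without water replicates 1 and 4 (-0.33, adjusted p = 0.0178). CRIM1 was also lost in limma voom, with the replicate block, in a fit to the 8 vehicle libraries, and without any 1 of 11 libraries (water replicates 1 or 4, any harmine or DMSO replicate or INDY replicate 1), at -0.24 to -0.16 (adjusted p 0.012 to 0.038). Without water replicates 1 and 4 it was -0.10 (adjusted p = 0.23). The list was drawn up from genes known as YAP and TEAD targets in other cells, and whether YAP or TEAD acts on them in U2OS cells was not measured here.

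**Figure D5:**
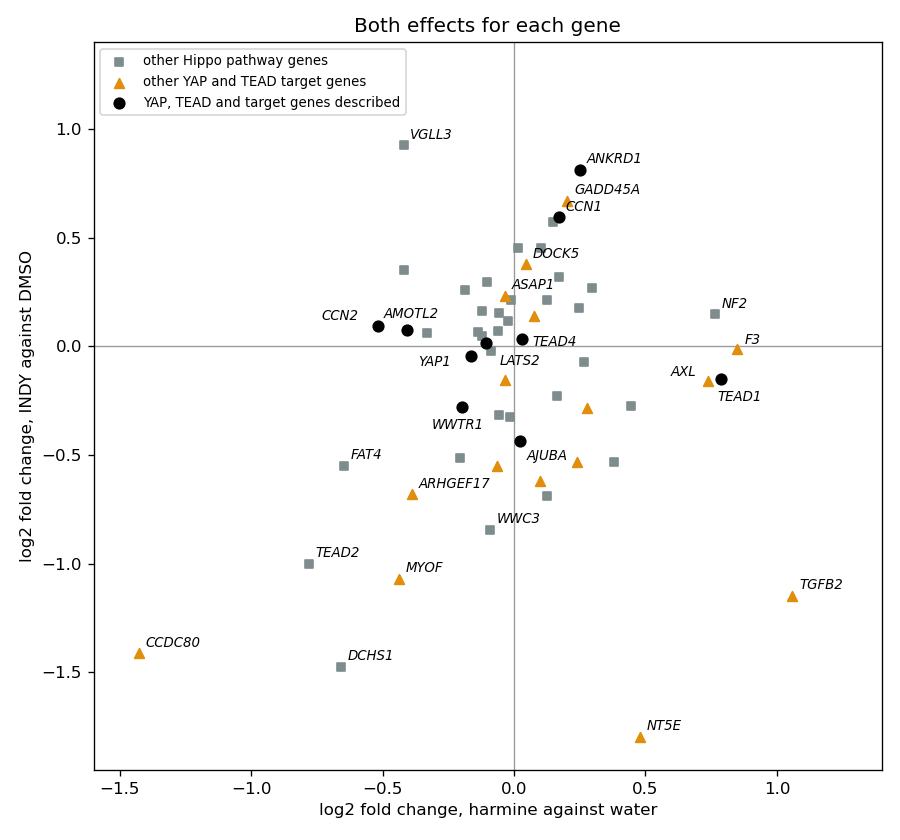
Log2 fold change with harmine against water (horizontal axis) and with INDY against DMSO (vertical axis) for the 10 members and the tested genes of both lists, 1 point per gene, with named genes labelled. TGFB2 lies at 1.06 and -1.15, CCDC80 at -1.43 and -1.41, and ANKRD1 at 0.25 and 0.81.

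The levels of some other genes followed the members closely across the 16 libraries, as measured by Pearson's r of log2 CPM among 13026 genes. The libraries fall into 4 groups, so r describes the pattern over the groups, and it is given with no test. Closest to TEAD1 were SH3RF2 (0.99) and DDB2 (0.99), to CCN2 CPNE4 (0.99) and IL11 (0.99), and to AMOTL2 TMEM53 (0.99) and TIAM1 (0.99). Closest to CCN1 were LGALS3 (0.99) and SRP68 (0.98), and to ANKRD1 NFIL3 (0.99) and ZC3H7A (0.99). Closest to WWTR1 were AMPD3 (0.98) and CXCL16 (0.98), to AJUBA PORCN (0.98) and VARS1 (0.98), to YAP1 RP2 (0.94) and RPS6KA6 (0.94), and to LATS2 GRAMD2B (0.89) and GPR137B (0.88). TEAD4, the member that varied least between groups, had no gene above 0.74 (AHSA1, then NAA10 at 0.70).

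Some reads of the members may belong to neighbours. Exons of YAP1, WWTR1 (WWTR1-AS1) and CCN2 (LINC01013) overlap genes on the opposite strand, and the library type set in quantification is not given in the sources used here. AJUBA shares exon positions on the same strand with another annotated gene, and AMOTL2 with the pseudogene RPL39P5. Of the 100-base stretches in AJUBA transcripts, 0.0% were found in transcripts of another gene. Of those in AMOTL2 transcripts, 1.28% were, shared with RPL39P5. AMOTL2 may therefore include some reads of RPL39P5, and overlaps shorter than 100 bases were not searched.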

How the data were processed

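RNA of 16 libraries of U2OS cells (4 groups of 4) was sequenced after polyA selection. The authors deposited estimated counts for each gene, made with Salmon 1.1 (GENCODE 37 transcripts, GRCh38 genome as decoy, GC and sequence bias corrections) and tximport 1.14.2, with edgeR 3.28.1 for their tests. Groups came from the sample labels. Here the estimated counts were rounded, genes passing filterByExpr (20446) were tested in edgeR 4.0.16 (TMM factors, glmQLFit, glmQLFTest, 1 model of the 4 groups, R 4.3.3), and p-values were adjusted over all of them. CPM are TMM-normalized, log2 CPM use a prior count of 2, and ± is the SD over 4 libraries. DESeq2 1.42.0 and limma voom 3.58.1 were alternatives, as were other scalings, filters, a block for replicate number and leaving out libraries. Promoters came from RefSeq (GRCh38.p14) and lengths from GENCODE 44. The members, lists and tests were chosen with earlier results of these data known. Beside the members, the genes named were DYRK1A, in each list the 4 widest called changes per compound and each gene of a direction with 3 or fewer calls, and for each member the 2 genes with the highest r. Further genes (STK3, STK4, LATS1, MOB1A, MOB1B, SAV1, SIAH2, TEAD3, CRIM1) were chosen with their values in view. The result of 1 marker gene is not reported here. The lowest count of a member was 1945, and the SD over libraries includes counting error.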

Additional observations from a re-analysis of the deposited data

Results flagged for a closer look

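Of 40 groups of 4 libraries (10 members in 4 groups), 3 held a library far from the others, where chance flags about 1 in 20 groups. These were TEAD1 in water replicate 4 (134 CPM, the other water libraries 126 to 127), WWTR1 in INDY replicate 3 (44.5 CPM, the others 47.8 to 48.4) and AJUBA in DMSO replicate 2 (64.9 CPM, the others 67.7 to 68.2). TEAD1 with harmine and with INDY, WWTR1 with INDY and AJUBA with INDY were called with and without these libraries.

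The effect of harmine and that of INDY differed in edgeR's test of the difference itself for 6 members, on the log2 scale as harmine minus INDY. The values were 0.94 for TEAD1, 0.46 for AJUBA, -0.43 for CCN1, -0.48 for AMOTL2, -0.56 for ANKRD1 and -0.61 for CCN2. Of all genes, 28.1% passed this test with a positive and 26.4% with a negative difference. CCN1 and ANKRD1 rose with both compounds and by less with harmine, TEAD1 rose with harmine and fell with INDY, CCN2 and AMOTL2 fell with harmine, and AJUBA fell with INDY. The doses (10 and 25 µM) and the vehicles differed between the compounds.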

How the results depend on the processing

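Of 1936 values of single genes recomputed under an alternative, 1832 kept their direction and their side of the threshold, 71 lost the call, 16 gained it and 17 changed sign. The alternatives include 16 fits without 1 library, some without a library outside the groups compared. Many of the genes were picked for wide changes, so the share that held says little about robustness. When a fold of at least 1.5 was asked for, the members that rose and fell with harmine were 1 and 0, the members that fell with INDY 0, and those with a positive or negative difference 1 and 1. Of the other Hippo genes, 1 then rose and 3 fell with harmine, and 1 rose and 4 fell with INDY. Of the other target genes, 3 rose and 1 fell with harmine, and 1 rose and 6 fell with INDY. Among all genes, 8.41% rose and 7.90% fell this far with harmine, and 14.3% rose and 19.4% fell with INDY. A positive difference of this size passed for 3511 and a negative one for 2446 of the 20446 genes. Leaving out 1 library at a time gave 1 to 3 members that rose and 3 to 5 that fell with harmine, 2 to 3 that rose and 3 that fell with INDY, and 0 to 1 higher between DMSO and water (1 without INDY replicate 2, and 1 without INDY replicates 1 and 3). Only 1 member was higher with harmine without water replicate 2, water replicate 3 or harmine replicate 3. The settings without water replicates 1 and 4 or without INDY replicates 1 and 3 and the values for genes outside the 10 members were chosen after seeing the data.

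Signs changed where the effect was near 0 and did not pass. LATS2 with INDY was -0.0098 with upper-quartile factors, -0.0032 with no filter, -0.039 without INDY replicates 1 and 3, and -0.0095 to 0.043 when 1 library was left out. The TEAD4 difference was 0.0063 with upper-quartile factors, 0.0023 without water replicates 1 and 4, and -0.034 to 0.018 when 1 library was left out. With 1 library left out, YAP1 with INDY ran from -0.074 to 0.0055, AJUBA with harmine from -0.013 to 0.058, and CCN1 between DMSO and water from -0.043 to 0.030. Without water replicates 1 and 4, CCN1 between the vehicles was 0.068 and YAP1 0.023. The causes were not tested.

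Nothing in the labels or methods says that the replicate numbers pair the libraries, and no pairing was assumed. The correlations of same-numbered deviations were -0.05 to -0.01 for harmine and water and -0.02 to 0.09 for INDY and DMSO. By these, 0 of 4 harmine and 3 of 4 INDY libraries correlated best with their own number. Such correlations cannot tell whether the libraries were prepared in pairs. With the replicate block, 3 members rose and 4 fell with harmine, and 2 rose and 3 fell with INDY, as without it.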

Other observations

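Of the other YAP and TEAD target genes, 12 had RefSeq promoters, 13 in all, and 5 of these held the TEAD core GGAATG on either strand, against 14.0% of all 35116 promoters. These were NUAK2 with 2 matches, PTPN14, TGFB2, FOXF2 and start 2 of AXL. TGFB2 held the longer form TGGAATGT, which 1.17% of all promoters did, and F3 held the AP-1 site TGACTCA, which 4.95% did. Of the 5 genes with the core, TGFB2, AXL, PTPN14 and FOXF2 rose with harmine (log2 fold changes 1.06, 0.74, 0.24 and 0.28, where 24.9% of all genes rose), and TGFB2, PTPN14 and FOXF2 fell with INDY (-1.15, -0.53 and -0.28, where 33.4% of all genes fell). Of the 16 genes tested in this list, 6 rose with harmine and 9 fell with INDY. F3 (0.85) and GADD45A (0.20), for which no core was found, also rose with harmine. Whether the core bears on these changes was not tested. Of the members with the core, CCN2 (-0.52), AMOTL2 (-0.41) and YAP1 (-0.16) fell with harmine and ANKRD1 rose (0.25). AJUBA (0.02, with the core at start 2 only) and LATS2 (-0.11) did not pass. The rise of PTPN14 was lost without water replicates 1 and 4 (0.16, adjusted p = 0.0102 in edgeR). AXL with INDY was at -0.16 (adjusted p = 0.0106 in edgeR), and NUAK2 passed in neither comparison (-0.04 and -0.15). FOXF2 and PTPN14 were named here after their values were seen. The other Hippo genes held the core in 4 of 42 promoters.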
